A study of Mus musculus with 18 samples.

Results

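The 10 genes described here are *Gata4*, *Gata6*, *Sox17*, *Pdgfra*, *Dab2*, *Lama1*, *Lamb1*, *Col4a1*, *Col4a2* and *Sparc*, a set of primitive endoderm and basement membrane genes found by symbol among the 24369 gene rows of the deposited TPM table. All 10 were present and all 10 passed the low-count filter in both sets of libraries. The libraries came from mouse embryonic stem cells (mESCs) of the E14 line with the genotype Rex1GFPd2-Cas9, which carry a GFP reporter at 1 allele of *Rex1* (also called *Zfp42*) and Cas9 in *Rosa26*. RNA-seq of a differentiation time course gave 12 libraries, 3 each for days 0, 1, 2 and 3, and RNA-seq of sorted GFP+ cells gave 6 libraries, 2 each for wild-type (Rex1GFPd2-Cas9), *Nprl2* KO (Rex1GFPd2-Cas9 *Nprl2*-/-) and *Tsc2* KO (Rex1GFPd2-Cas9 *Tsc2*-/-). The GFP+ cells were sorted from cultures in serum and LIF on feeder fibroblasts, and each KO line was a picked clone, with no statement of how many clones the libraries cover. The starting culture of the time-course RNA was not given in the sources used here.

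Primitive endoderm is the epithelium that forms beside the epiblast of the blastocyst and later gives the yolk sac endoderm. *Gata6*, *Gata4* and *Sox17* are transcription factors of this lineage, *Pdgfra* is a receptor for platelet-derived growth factor on its cells, and *Dab2* is an endocytic adaptor needed for its epithelial order. Its cells secrete a basement membrane, a sheet built from laminin heterotrimers of an alpha, a beta and a gamma chain and from collagen IV heterotrimers, bridged by nidogens and perlecan. *Lama1* and *Lamb1* encode the alpha-1 and beta-1 chains of laminin-111, *Col4a1* and *Col4a2* encode the chains of the common collagen IV trimer, and *Sparc* encodes a secreted protein that binds collagen.

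In the RefSeq annotation of GRCm38.p6 (mm10), *Gata4* lies at chr14:63198914-63271712, *Sox17* at chr1:4490928-4497426 and *Pdgfra* at chr5:75151322-75198206. *Dab2* lies at chr15:6299788-6440715, *Lama1* at chr17:67697127-67822645, *Lamb1* at chr12:31265146-31329644 and *Sparc* at chr11:55394159-55420080. *Col4a1* (chr8:11198423-11312889) and *Col4a2* (chr8:11312805-11449287) stand head to head on opposite strands, and their spans overlap at the 5′ ends. The values below are sums over the annotated transcripts of each gene.

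The RefSeq promoter table places the start of *Col4a1* at 11312826, inside the wider gene span given above, and that of *Col4a2* at 11312805, so that between these starts lie 22 shared bases, at chr8:11312805-11312826. They are shown on the plus strand because both collagen IV members are read outward from them, with the GGGCGG motif in capitals, and beside them stands the stretch upstream of the first annotated start of *Lamb1*, a member that rose where most others fell, at chr12:31265043-31265145 on the plus strand, with the CCAAT motif in capitals.
Col4a1 and Col4a2 shared 5′ ends: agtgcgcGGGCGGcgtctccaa
Lamb1 upstream: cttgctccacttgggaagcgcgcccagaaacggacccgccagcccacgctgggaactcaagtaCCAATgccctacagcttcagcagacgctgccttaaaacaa
RefSeq promoter windows of 300 bases on GRCm38.p6 were at hand for 6 of the 10 members (*Pdgfra*, *Dab2*, *Lamb1*, *Col4a1*, *Col4a2* and *Sparc*). CCAAT, searched on both strands, occurred in the windows of *Lamb1*, *Col4a1* and *Col4a2* and in 37.4% of all 32851 windows, and GGGCGG occurred in the windows of the same 3 genes and in 35.7% of all windows. The windows of *Col4a1* and *Col4a2* overlap, so a match can be shared between them. TATAAA was in none of the members' windows and in 13.6% of all windows. AGATAA (11.2% of all windows) and TGATAA (9.05%), which share the letters GATAA, were each found in 1 of the 2 *Dab2* windows and in no other member's window. The collagen IV windows held 74.0% (*Col4a1*) and 73.7% (*Col4a2*) G or C, against a median of 52.7% over all windows.

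Total estimated counts were 12503005 to 15305054 per time-course library and 8610357 to 13780861 per GFP+ library, so that 3 counts, the upper limit a count of 0 allows, correspond to 0.196 to 0.348 CPM (counts scaled to the library total). The labels were checked on the targeted genes: *Nprl2* was at 8.09 and 8.65 TPM in the *Nprl2* KO libraries against 16.1 and 17.0 TPM in wild-type, and *Tsc2* was at 18.8 and 20.3 TPM in the *Tsc2* KO libraries against 45.0 and 44.9 TPM in wild-type. Both genes were lower in the libraries labelled as their knockout (adjusted p = 0.00888 and 9.74e-07). Both knockouts were made by deleting an exon, so reads from the rest of the gene can remain. Where the remaining reads came from was not tested. The labels do not say whether replicate libraries came from separate cultures, so the p-values measure the spread between these libraries, which may be technical. No test was made between the time course and the GFP+ libraries.

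Over 3 days of differentiation the set did not move as a block. *Gata4*, *Gata6*, *Sox17*, *Pdgfra*, *Lama1* and *Sparc* were lower on day 3 than on day 0, *Lamb1* and *Dab2* were higher, and *Col4a1* and *Col4a2* first fell and were then not called different from their starting level. Fold changes are log2 differences from edgeR's quasi-likelihood test on the counts, adjusted over all genes by Benjamini-Hochberg, and called at 0.05. Their standard errors (SE) were derived as the absolute log2 difference over the square root of the test's F statistic. In bulk RNA, fewer cells that express a gene and less RNA per cell cannot be told apart.

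**Figure D1:**
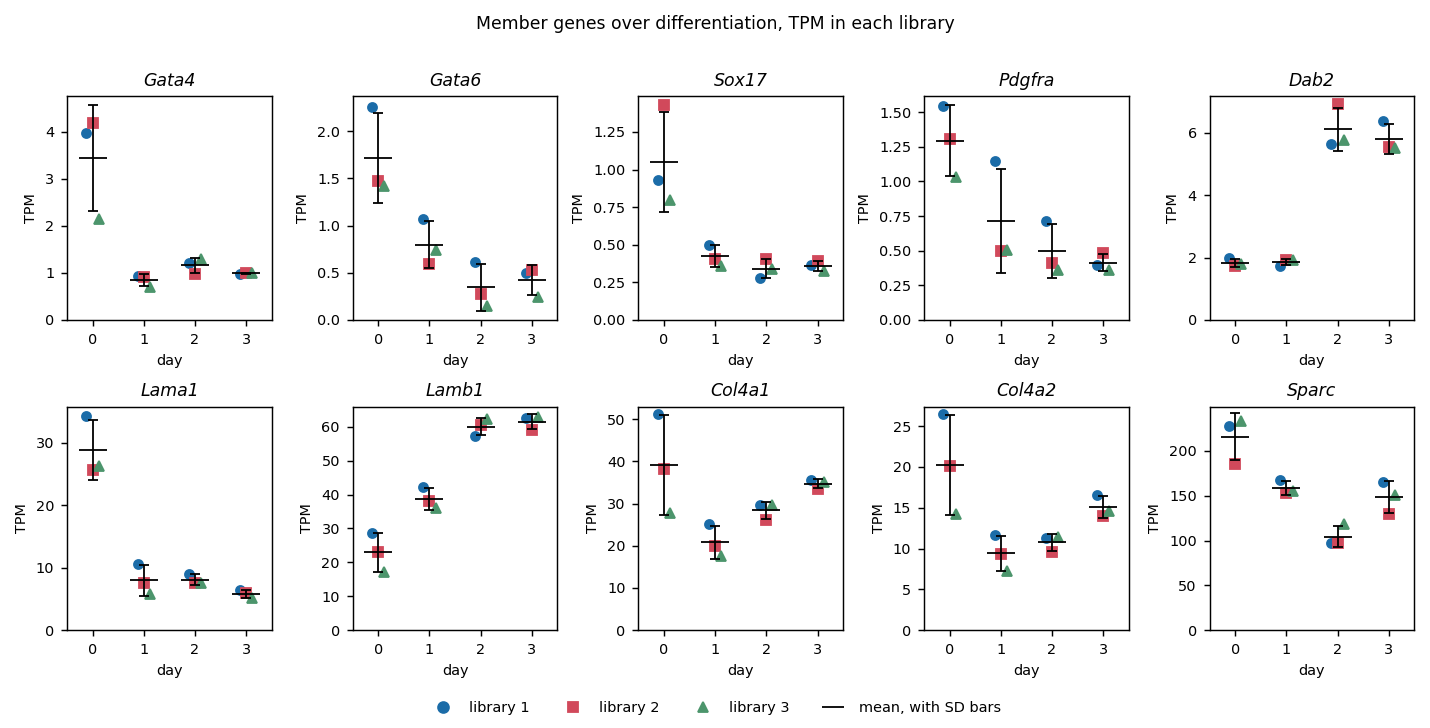
TPM (vertical axis, linear, from 0) of each member in the 3 libraries of each day of differentiation (horizontal axis); coloured symbols are libraries and black bars are the mean with its SD. *Lama1* drops from 25.7 to 34.4 TPM on day 0 to 5.13 to 6.41 TPM on day 3, while *Lamb1* climbs from 17.2 to 28.7 TPM to 58.9 to 62.9 TPM.

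The 3 transcription factors were low throughout. *Gata6*, whose gene lies at chr18:11052510-11085636 on the same build, is described here with *Gata4* and *Sox17*. *Gata4* read 3.97, 4.19 and 2.14 TPM on day 0, 0.926, 0.905 and 0.692 on day 1, 1.20, 0.980 and 1.30 on day 2 and 0.977, 0.997 and 0.987 on day 3. All day 0 libraries lay above all later ones, with library 3 the lowest of that day. *Gata4* fell by 1.95 on the log2 scale from day 0 to day 1 (SE 0.25, adjusted p = 1.98e-06) and neither later step was called. *Gata6* read 2.26, 1.47 and 1.41 TPM on day 0, 1.07, 0.587 and 0.738 on day 1, 0.617, 0.273 and 0.144 on day 2 and 0.500, 0.531 and 0.239 on day 3. All later libraries lay below day 0, library 1 of day 2 stood slightly above the lowest library of day 1, and days 2 and 3 overlapped. *Gata6* fell by 1.02 from day 0 to day 1 (SE 0.34, adjusted p = 0.0152) and by 1.32 from day 1 to day 2 (SE 0.45, adjusted p = 0.0157), and was 4.17-fold lower on day 3 than on day 0 (adjusted p = 8.47e-05). These steps rest on 3 to 47 counts per library. The first was lost without day 0 replicate 1 (-0.78, adjusted p = 0.0901) or day 1 replicate 2 (-0.84, 0.0755), and the second without day 1 replicate 1 (-1.04, 0.0906), day 2 replicate 2 (-1.18, 0.0573) or day 2 replicate 3 (-0.96, 0.0776), and it read -2.03 without day 2 replicate 1. *Sox17* read 0.933, 1.43 and 0.796 TPM on day 0, 0.502, 0.407 and 0.358 on day 1, 0.276, 0.403 and 0.339 on day 2 and 0.364, 0.393 and 0.325 on day 3. Its day 0 libraries stood above all the others, and days 1, 2 and 3 lay close together, at 6 to 12 counts each. *Sox17* fell by 1.28 from day 0 to day 1 (SE 0.31, adjusted p = 0.00163) with no later step called.

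The receptor and the adaptor went opposite ways. *Pdgfra* read 1.55, 1.30 and 1.03 TPM on day 0, 1.15, 0.496 and 0.502 on day 1, 0.718, 0.408 and 0.362 on day 2 and 0.394, 0.482 and 0.362 on day 3. Library 1 of day 1 lay within the range of day 0, so those days overlapped, while days 0 and 3 did not. *Pdgfra* was 3.30-fold lower on day 3 than on day 0 (adjusted p = 1.24e-04). Its fall of 0.77 from day 0 to day 1 (SE 0.30, adjusted p = 0.0331) was lost with DESeq2 (adjusted p = 0.0722) and without day 0 replicate 1 (-0.64), day 0 replicate 2 (-0.77), day 1 replicate 2 (-0.56) or day 1 replicate 3 (-0.57), and read -1.30 without day 1 replicate 1. The change from day 1 to day 2, -0.65 (adjusted p = 0.108), was called without day 1 replicate 3 (-0.85, 0.0493) or day 2 replicate 1 (-1.02, 0.0291). *Pdgfa*, which encodes a ligand of this receptor, fell from 203, 196 and 220 TPM on day 0 to 6.43, 4.13 and 7.38 on day 3, a log2 difference of -5.19 (SE 0.13, adjusted p = 5.29e-17). The ligand was the more abundant transcript of the pair per length on every day. *Dab2* read 1.98, 1.72 and 1.81 TPM on day 0, 1.75, 1.93 and 1.91 on day 1, 5.64, 6.91 and 5.78 on day 2 and 6.38, 5.56 and 5.52 on day 3. The levels formed a low pair of days and a high pair of days with no library in between. *Dab2* rose by 1.64 from day 1 to day 2 (SE 0.14, adjusted p = 7.93e-09), and the differences from day 0 to 1 and from day 2 to 3 were not called. How its reads were split between 4 annotated transcripts varied widely between libraries (the leading transcript took from 42.5% of the TPM to all of it), so only the gene total is used.

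The laminin chains parted. *Lama1* read 34.4, 25.7 and 26.3 TPM on day 0, 10.7, 7.61 and 5.75 on day 1, 9.07, 7.60 and 7.49 on day 2 and 6.41, 5.93 and 5.13 on day 3. Every library after day 0 was far below every day 0 library, and the libraries of day 3 lay below those of day 2. *Lama1* fell by 1.77 from day 0 to day 1 (SE 0.22, adjusted p = 6.61e-05) and was 5.23-fold lower on day 3 than on day 0 (adjusted p = 6.22e-06), the largest change of any member between these days. The step from day 2 to day 3, -0.51 (SE 0.23, adjusted p = 0.134), was called without day 1 replicate 1 (0.0316) or day 1 replicate 3 (0.0447), libraries that enter it through the shared estimate of spread only. *Lamb1* read 28.7, 23.2 and 17.2 TPM on day 0, 42.3, 38.2 and 35.9 on day 1, 57.2, 60.5 and 62.2 on day 2 and 62.5, 58.9 and 62.9 on day 3. The first 3 days did not overlap, and days 2 and 3 did. *Lamb1* rose by 0.83 from day 0 to day 1 (SE 0.13, adjusted p = 1.73e-04) and by 0.51 from day 1 to day 2 (SE 0.13, adjusted p = 0.00409), in all 2.52-fold by day 3 (adjusted p = 1.59e-06).

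As ratios of TPM, the stoichiometry of the laminin transcripts turned over. *Lama1* to *Lamb1* was 1.28 ± 0.22 (SD, n = 3) on day 0, 0.204 ± 0.046 on day 1, 0.135 ± 0.021 on day 2 and 0.0949 ± 0.012 on day 3, and the lowest day 0 ratio (1.11) exceeded the highest later ratio (0.253). *Lamc1*, the gamma-1 chain shared by most laminins, fell as *Lamb1* rose, by 1.44 on the log2 scale from day 0 to day 3 (SE 0.08, adjusted p = 5.93e-11). Its ratio to *Lamb1* went from 7.35 ± 2.45 on day 0 to 2.75 ± 0.27, 0.951 ± 0.030 and 1.03 ± 0.032 on days 1, 2 and 3. The day 0 libraries spread widely here, from 5.76 to 10.2, with library 3 the highest. *Lama5*, the alpha-5 chain, rose by 0.91 from day 0 to day 3 (SE 0.08, adjusted p = 5.3e-09), from 41.7 to 45.3 TPM on day 0 to 84.1 to 93.0 TPM on day 3, so that *Lama5* was above *Lama1* per length in every library. *Lamb2*, which encodes the beta-2 chain, fell by 1.84 from day 0 to day 1 (adjusted p = 9.63e-09). It then rose by 0.71 from day 1 to day 2 (adjusted p = 5.4e-04) and by 0.37 from day 2 to day 3 (adjusted p = 0.047). On day 3 *Lamb2* was still 0.76 below day 0 (adjusted p = 5.6e-05).

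**Figure D2:**
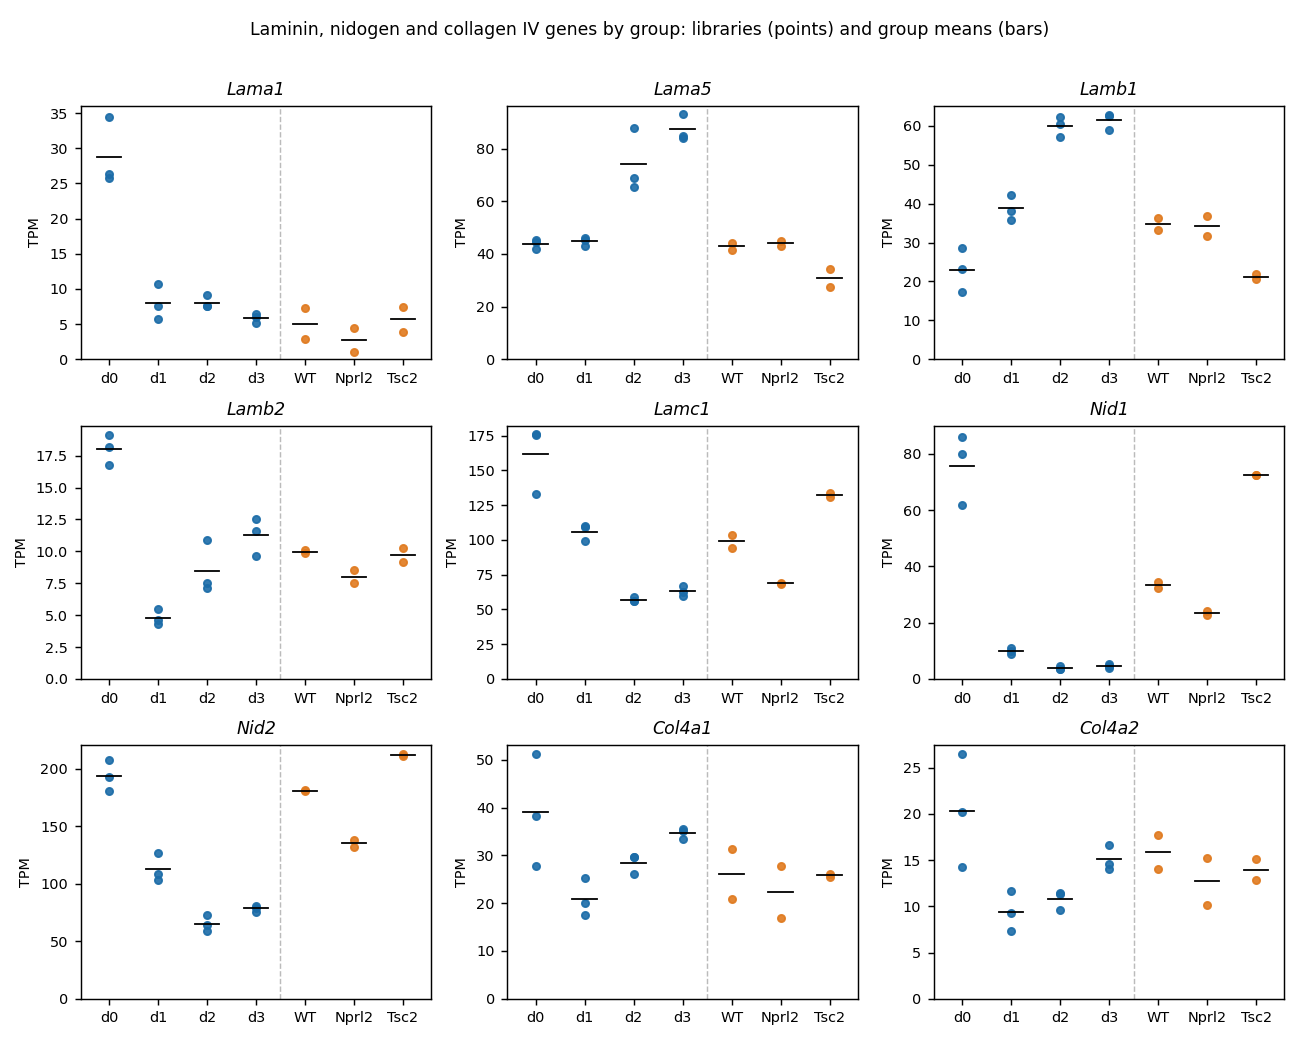
TPM (vertical axes, linear, from 0) of laminin, nidogen and collagen IV genes in each library of the 4 days (blue points) and of the GFP+ genotypes (orange points), with group means as black bars. *Lama1*, *Lamc1*, *Nid1* and *Nid2* fall after day 0 while *Lamb1* and *Lama5* rise, and in GFP+ cells *Lamb1* is lowest in *Tsc2* KO while *Lamc1* and *Nid1* are highest there.

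Collagen IV dipped on day 1. *Col4a1* read 51.3, 38.3 and 27.7 TPM on day 0, 25.2, 20.0 and 17.5 on day 1, 29.7, 26.1 and 29.6 on day 2 and 35.5, 33.4 and 35.2 on day 3. *Col4a2* read 26.4, 20.1 and 14.2 TPM on day 0, 11.7, 9.27 and 7.28 on day 1, 11.4, 9.56 and 11.4 on day 2 and 16.6, 14.0 and 14.6 on day 3. For both genes the order of the day 0 libraries was the same, library 1 highest and library 3 lowest, and the day 3 libraries fell inside the range of day 0 or at its lower edge. From day 0 to day 1 *Col4a1* fell by 0.83 (SE 0.21, adjusted p = 0.00651) and *Col4a2* by 1.03 (SE 0.23, adjusted p = 0.00344), and the call on *Col4a1* was lost when only those days were fitted (adjusted p = 0.0557). Later steps were not called in the main fit. Some alternative settings called the rise of *Col4a1* from day 1 to day 2 and those of *Col4a1* and *Col4a2* from day 2 to day 3. On day 3 the differences from day 0 were -0.25 for *Col4a1* (SE 0.20, adjusted p = 0.285) and -0.51 for *Col4a2* (SE 0.22, adjusted p = 0.0658). Without day 0 replicate 3 both were called (-0.45, adjusted p = 0.0264, and -0.70, 0.00611), and *Col4a2* was called too without day 1 replicate 1 (-0.51, 0.0442) or day 1 replicate 3 (-0.51, 0.0427). The ratio of *Col4a1* to *Col4a2* in TPM was tight within a day, at 1.93 ± 0.028, 2.24 ± 0.14, 2.65 ± 0.074 and 2.31 ± 0.15 (SD, n = 3) on days 0 to 3, although *Col4a1* alone spanned 27.7 to 51.3 TPM between the day 0 libraries. The ratios of day 0 lay below all those of later days.

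*Sparc* was the most abundant member per length in every library. It read 228, 186 and 234 TPM on day 0, 168, 153 and 156 on day 1, 97.5, 97.6 and 118 on day 2 and 166, 130 and 150 on day 3. The days 0, 1 and 2 fell in steps that did not overlap, and day 3 came back above day 2. *Sparc* fell by 0.37 (SE 0.10, adjusted p = 0.00372) and then by 0.72 (SE 0.10, adjusted p = 1.38e-05) and rose by 0.47 from day 2 to day 3 (SE 0.10, adjusted p = 0.00249), ending 1.54-fold below day 0 (adjusted p = 3.31e-05). Of its 2 annotated transcripts, the leading one took 74.1% to 96.0% of the TPM of the gene.

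**Figure D3:**
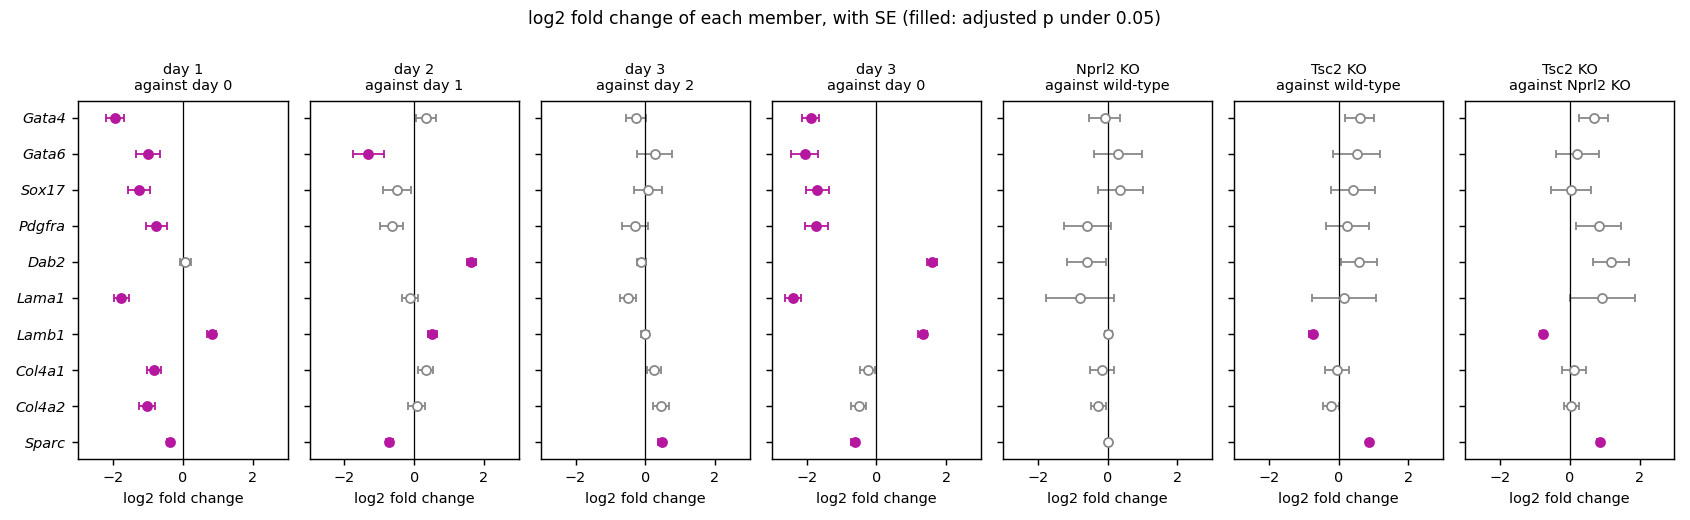
Log2 fold change of each member (horizontal axes, same scale in every panel) in the 7 comparisons, with SE bars; filled symbols have an adjusted p under 0.05 by edgeR. In the first panel 8 members lie below 0 and *Lamb1* above it, in the panel of *Nprl2* KO against wild-type no symbol is filled, and in both panels of *Tsc2* KO only *Lamb1* and *Sparc* are filled.

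Counted by step, 8 of the 10 members were lower and 1 (*Lamb1*) was higher on day 1 than on day 0, where 30.8% of the 14382 tested genes were lower and 30.1% higher. The median log2 difference of the members was -0.92 against 0.00065 for all tested genes. From day 1 to day 2, 2 members were higher and 2 lower (32.5% and 29.6% of tested genes). From day 2 to day 3, only *Sparc* was called, higher (15.9% of tested genes were higher and 15.6% lower). Across the whole interval, day 3 against day 0, 2 members were higher and 6 lower (35.0% and 35.9% of tested genes), with a median of -1.16 against -0.013 for all tested genes.

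Among 9303 genes with at least 10 CPM on average in the time course, the profile of centred day means nearest to that of *Lama1* belonged to *Slc7a1* (root mean square difference 0.155 on the log2 scale), *Tmem64* and *Gss*. The nearest to *Lamb1* were *Cdca7l* (0.0341), *Fdps* and *Adgrv1*, to *Col4a1* *Srd5a3* (0.0167), *Ift140* and *Snx15*, to *Col4a2* *Nr4a1* (0.0335), *Fam160b2* and *Slc2a8*, and to *Sparc* *Plekha2* (0.0683) and *Dxo*. No member was among the 3 genes nearest to another member. *Col4a2* ranked 375 from *Col4a1*, and *Col4a1* ranked 135 from *Col4a2*, at a difference of 0.162, while *Lamb1* ranked 8589 from *Lama1*. These are likenesses over 4 day means and carry no test.

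Of the 15 tested genes among the other basement membrane components (21 listed), 5 were higher and 8 lower on day 3 than on day 0, where 35.0% and 35.9% of all tested genes were, with a median of -0.62 against -0.013 for all genes. *Nid1*, a nidogen that links laminin to collagen IV, fell by 4.15 (SE 0.15, adjusted p = 4.8e-11), from 61.8 to 86.0 TPM on day 0 to 3.75 to 5.18 TPM on day 3. *Nid2* fell by 1.39 (adjusted p = 6.91e-12). *Hspg2*, which encodes perlecan, read -0.92 on day 1 (adjusted p = 0.00192) and -0.02 on day 3 (adjusted p = 0.928), both against day 0. *Col4a5*, a chain of another collagen IV trimer, rose by 2.84 (adjusted p = 3.06e-08).

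Of the other genes of primitive endoderm and yolk sac endoderm, 15 were tested (20 listed), and 4 were higher and 5 lower on day 3 than on day 0, shares not above those of all tested genes (35.0% and 35.9%). *Sox7*, a relative of *Sox17*, was at 0.535 to 0.804 TPM on day 0 and 0 to 0.289 TPM on day 3, a log2 difference of -1.86 (SE 0.54, adjusted p = 0.00508), while *Foxa2*, a forkhead factor also used in definitive endoderm, was lower on day 1 than on day 0 (-0.97, adjusted p = 0.0294) and higher on day 3 than on day 2 (1.14, adjusted p = 0.021). *Lrp2*, an endocytic receptor that *Dab2* binds, rose by 3.90 (SE 0.13, adjusted p = 6.18e-12). *Afp*, *Ttr* and *Apoa1*, secreted products of yolk sac endoderm, did not exceed 0.357 TPM in any time-course library. On the same list, *Apom* reached 3.178 TPM on day 0 and *Rbp4* reached 3.265 TPM on day 3.

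Markers of other cells were measured beside these changes. The 5 mESC markers (*Pou5f1*, *Sox2*, *Nanog*, *Zfp42* and *Esrrb*) summed to 4170 to 4319 TPM on day 0 and 1269 to 1553 TPM on day 3, and all 5 were lower. Of the 18 feeder fibroblast markers, 15 were tested, and 10 were higher and 3 lower on day 3 than on day 0 (35.0% and 35.9% of all tested genes). Their sum was 19.7 to 32.1 TPM on day 0, 35.0 to 36.4 on day 1, 73.2 to 83.5 on day 2 and 110.4 to 141.8 on day 3, with 2 to 4, 0 to 3, 2 to 3 and 2 of them at 0. *Acta2* (up by 4.15) and *Dcn* (up by 4.96) were among those that rose, and *Col1a1*, the main fibrillar collagen of fibroblasts, fell by 1.91 (adjusted p = 6.79e-05), to 1.03 to 1.25 TPM. The part of these cells or genes in the members' changes was not tested.

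In GFP+ cells without *Nprl2*, a subunit of the GATOR1 complex that restrains mTORC1, none of the 10 members was called against wild-type by edgeR, none had an unadjusted p under 0.05, and none was called by DESeq2 or limma. Among all 13725 tested genes 2.78% were higher and 3.66% lower. Both KO comparisons use the same wild-type libraries. The 2 libraries of a genotype often differed more than the genotypes did.

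**Figure D4:**
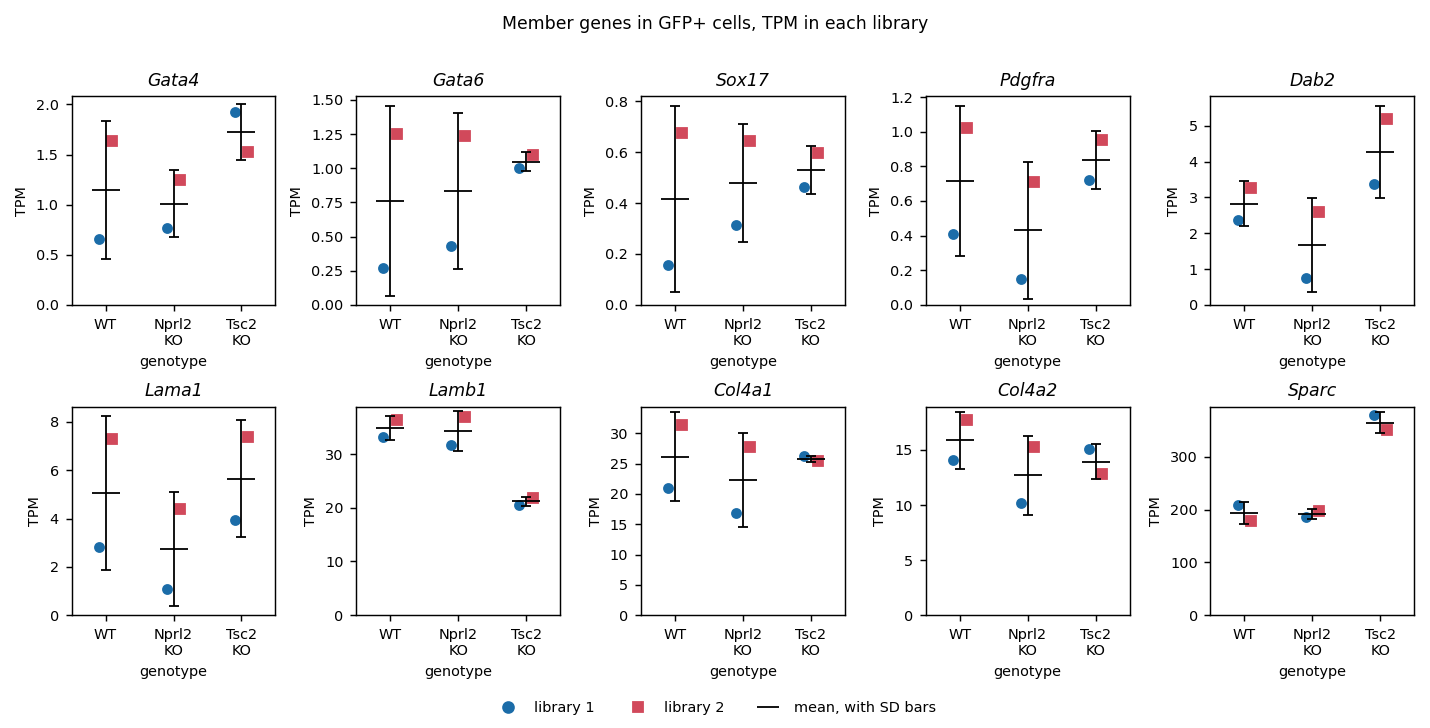
TPM (vertical axis, linear, from 0) of each member in both GFP+ libraries of wild-type (WT), *Nprl2* KO and *Tsc2* KO (horizontal axis); coloured symbols are libraries and black bars are the mean with its SD. Both *Tsc2* KO libraries lie above all 4 others for *Sparc* and below them for *Lamb1*, and for most other members the libraries of wild-type and of *Nprl2* KO lie far apart.

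*Gata4* read 0.656 and 1.63 TPM in wild-type against 0.771 and 1.24 TPM without *Nprl2*. *Lama1* read 2.80 and 7.31 TPM in wild-type and 1.07 and 4.39 in *Nprl2* KO, and *Dab2* read 2.38 and 3.27 in wild-type and 0.746 and 2.59 in *Nprl2* KO. In each case the genotypes overlapped, and library 1 was the lower library of both. This held for 9 of the 10 members in wild-type, all but *Sparc*, and for 10 of 10 in *Nprl2* KO, against 6 of 10 in *Tsc2* KO. The summed feeder markers were 293 TPM in library 1 and 211 in library 2 of wild-type, and 227.5 and 231.6 in *Nprl2* KO. Among the GFP+ libraries the lowest counts were in those libraries 1, with *Sox17* at 3 and *Gata6* at 5 counts in wild-type. In *Nprl2* KO *Sox17* and *Pdgfra* were at 6 counts each there. The log2 difference of *Lama1* was -0.78 with an SE of 0.97, and that of *Dab2* -0.60 with an SE of 0.56 (adjusted p = 0.611). With no filter on low counts *Lama1* was called at the same difference, -0.78 (adjusted p = 2.59e-06, against 0.118 to 0.80 under the other settings with all libraries). Without *Nprl2* KO replicate 2 *Dab2* was called at -1.81 (adjusted p = 0.0483), with the single *Nprl2* KO library left assumed to vary like the other groups.

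*Lamb1* and *Sparc* were measured more tightly. *Lamb1* read 33.3 and 36.4 TPM in wild-type and 31.7 and 36.9 in *Nprl2* KO, a log2 difference of 0.03 (SE 0.09, adjusted p = 0.909). *Sparc* read 208.5 and 178.8 TPM in wild-type and 185.6 and 197.9 in *Nprl2* KO, a log2 difference of 0.02 (SE 0.08, adjusted p = 0.917). For both genes the *Nprl2* KO and wild-type libraries overlapped.

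In GFP+ cells without *Tsc2*, a GTPase-activating subunit that restrains mTORC1 through Rheb, *Sparc* rose and *Lamb1* fell relative to wild-type, and the other 8 members were not called. *Sparc* read 379 and 350 TPM in *Tsc2* KO, above all other libraries of the series. It was 1.84-fold higher than in wild-type (log2 difference 0.88, SE 0.08, adjusted p = 1.05e-05) and 1.81-fold higher than in *Nprl2* KO (adjusted p = 8.09e-06). *Lamb1* read 20.6 and 21.8 TPM in *Tsc2* KO, below all 4 other GFP+ libraries. It was 1.68-fold lower than in wild-type (log2 difference -0.75, SE 0.09, adjusted p = 8.95e-05) and 1.71-fold lower than in *Nprl2* KO (adjusted p = 4.82e-05). Of all tested genes, 14.9% were called higher and 14.2% called lower against wild-type. Relative to *Nprl2* KO these shares were 17.5% and 16.6%. The count of 1 member higher and 1 lower of 10 in each comparison was thus not above these shares.

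The 2 *Tsc2* KO libraries differed in feeder markers, with a sum of 265 TPM in library 1 and 68.9 in library 2, and *Col1a1* at 60.3 and 15.0 TPM. *Sparc* and *Lamb1* lay on the same side of wild-type in both of these libraries, and both were called with either *Tsc2* KO library left out. None of the 15 tested feeder markers was called between any genotypes by edgeR, DESeq2 or limma, although 1 had an unadjusted p under 0.05 between *Tsc2* KO and *Nprl2* KO. The part of feeder cells in the differences of *Sparc* and *Lamb1* was not tested.

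The remaining members overlapped or lay near wild-type. *Gata4* read 1.92 and 1.53 TPM in *Tsc2* KO, *Gata6* 1.00 and 1.10, *Sox17* 0.462 and 0.597, and *Pdgfra* 0.719 and 0.954. *Lama1* read 3.93 and 7.37 TPM, *Col4a1* 26.2 and 25.5, *Col4a2* 15.1 and 12.8, and *Dab2* 3.36 and 5.18, the last just above both wild-type libraries. *Dab2* differed by 0.59 from wild-type (SE 0.51, adjusted p = 0.449, and 0.0339 with no filter on low counts) and by 1.19 from *Nprl2* KO (SE 0.52, adjusted p = 0.141, and 1.07e-06 with no filter). Without *Nprl2* KO replicate 2, the differences from *Nprl2* KO read 2.39 for *Dab2* and 2.36 for *Pdgfra*. These rest on the single *Nprl2* KO library left, with 19 counts of *Dab2* and 6 of *Pdgfra*. That library was the lower of its genotype for all 10 members. *Sox17* lies on chromosome 1, where the 747 tested genes had a median log2 difference of 0.37 in *Tsc2* KO against wild-type, and its own difference was 0.41 (SE 0.64, adjusted p = 0.67). The medians of the other chromosomes that carry members lay between -0.11 (chromosome 12, with *Lamb1*) and 0.016. The part of the chromosome 1 shift in the value of *Sox17* was not tested.

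The ratio of *Col4a1* to *Col4a2* was 1.63 ± 0.20 (SD, n = 2) for wild-type cells, 1.74 ± 0.11 for the *Nprl2* KO and 1.87 ± 0.18 for the *Tsc2* KO, with overlapping libraries. That of *Lama1* to *Lamb1* was 0.143 ± 0.083 for wild-type cells, 0.0763 ± 0.060 for the *Nprl2* KO and 0.264 ± 0.10 for the *Tsc2* KO. For *Lamc1* to *Lamb1* the ratios of single libraries were 2.59 and 3.11 for wild-type cells, 1.85 and 2.19 for the *Nprl2* KO and 6.12 and 6.33 for the *Tsc2* KO, without overlap between any of the genotypes. *Lamc1* lies on chromosome 1, and the part of the shift of that chromosome in the *Tsc2* KO ratios was not tested. No test was made on the ratios: the smallest two-sided p that an exact permutation test can give is 0.333 for 2 libraries against 2 and 0.10 for 3 against 3.

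Partners of the members in the basement membrane also differed between the knockouts. Of the 15 tested other basement membrane genes, *Nprl2* KO had 4 lower and none higher relative to wild-type (median -0.17, against 0.00060 for all genes). Among all tested genes 3.66% were lower and 2.78% higher in that comparison. *Tsc2* KO had 6 higher and 3 lower than wild-type (median -0.048, against 0.0048), where 14.9% and 14.2% of all tested genes were. *Lamc1* differed by -0.48 (SE 0.06, adjusted p = 9.58e-04) in *Nprl2* KO and by 0.38 (SE 0.06, adjusted p = 6.64e-04) in *Tsc2* KO. It lies on chromosome 1, where the median in *Tsc2* KO was 0.37 against wild-type and 0.36 against *Nprl2* KO. The part of that shift in the *Tsc2* KO values of *Lamc1* was not tested. *Nid1* differed by -0.47 (adjusted p = 0.00223) and 1.08 (adjusted p = 1.14e-06), and *Nid2* by -0.38 (adjusted p = 0.00329) and 0.19 (adjusted p = 0.0287). In the direct comparison, all 3 were higher in *Tsc2* KO than in *Nprl2* KO, by 0.86 for *Lamc1* (adjusted p = 1.17e-06), 1.56 for *Nid1* (3.33e-08) and 0.57 for *Nid2* (2.24e-05). *Hspg2* differed from wild-type by -0.57 in *Nprl2* KO (adjusted p = 0.0693) and by -0.07 in *Tsc2* KO (adjusted p = 0.769). *Pdgfa* was at 94.6 and 118.6 TPM in wild-type and at 164 and 217 TPM in *Tsc2* KO, a log2 difference of 0.80 (SE 0.16, adjusted p = 0.00659), while its receptor *Pdgfra* was not called. Of the other primitive endoderm genes, 11 were tested, and none was called in *Nprl2* KO by any of the 3 tools (3 had an unadjusted p under 0.05 in edgeR). In *Tsc2* KO 2 of the 11 were higher and 1 lower than in wild-type, where 14.9% and 14.2% of all tested genes were. *Sox7* was too low to be tested in GFP+ cells, and *Foxa2* was at 0.280 to 0.986 TPM with no call. Of the mESC markers, *Esrrb* and *Zfp42* were lower in *Nprl2* KO (-0.94 and -0.43) and higher in *Tsc2* KO (1.03 and 0.52), and *Nanog* was higher in *Tsc2* KO (0.91).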

How the data were processed

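RNA-seq was analysed for 12 time-course libraries and 6 libraries of sorted GFP+ mESCs, grouped by the labels. For each library the authors deposited estimated counts and TPM per RefSeq transcript, and a table of TPM per gene. The submitters' processing notes name kallisto 0.42.1, DESeq2 and the mm10 build. Neither is normalized between libraries. The GFP+ libraries were made with a stranded mRNA kit, and the labels say of the time course only that standard Illumina protocols were used. Deposited tables of the authors' own KO comparisons (fold changes and p-values) were not used.

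Transcripts were assigned to genes through RefSeq of GRCm38.p6 (33709 of 34079) or GENCODE M21 (196), and 174 were left out, with 1.65% to 3.57% of the counts of a library. Estimated counts were summed per gene and rounded. The 2 sets of libraries were fitted separately with edgeR 4.0.16 in R 4.3.3 (TMM, filterByExpr, robust quasi-likelihood test with Benjamini-Hochberg adjustment, threshold 0.05), over 14382 and 13725 genes. Levels per library are the deposited TPM. On simulated counts the fit recovered 95% of 2-fold and 99% of 4-fold changes for day 1 against day 0, and 97% and 100% for *Nprl2* KO against wild-type. It also called 19 and 11 unchanged genes. The changed genes were drawn from better expressed genes only. These shares therefore do not cover levels as low as those of *Gata4*, *Gata6*, *Sox17* and *Pdgfra*. Alternatives were DESeq2 1.42.0, limma 3.58.1 on log2(TPM + 1), upper-quartile scaling, no filter, at least 10 counts in every library, only the groups compared, the replicate number as a block, and leaving out each library. Intervals and limits from counts cover counting error only.

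The members and the gene lists were chosen with earlier results of these data known, and *Foxa2* and *Pdgfrb* stand on 2 lists each. The text names all 10 members, the label checks *Nprl2* and *Tsc2*, and *Lamc1*, *Nid1*, *Nid2*, *Hspg2*, *Pdgfa*, *Sox7* and *Foxa2* in any case. From each other list it names up to 3 called genes per direction and comparison, by size of fold change, that averaged 1 or more on the log2 CPM scale, and for each member with at least 10 CPM the 3 genes nearest in day profile. Some genes that this rule names are not reported here. *Lamb2* from day 0 to day 3, the zero-level markers *Afp*, *Ttr* and *Apoa1*, and *Apom* and *Rbp4* were chosen outside this rule, after their values were seen. Same-numbered libraries of different days deviated together with correlations of -0.113 to 0.133, so the numbers were not taken to pair libraries of the time course. Between GFP+ genotypes these correlations were all positive, 0.085 to 0.164, with 2 libraries per genotype. The GFP+ set was fitted without pairing too, and the replicate block is given as an alternative.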

Additional observations from a re-analysis of the deposited data

How the results depend on the processing

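No alternative turned the direction of a member's called change. The chain ratios were also computed from estimated counts over effective length. TPM rescales that quantity by a constant per library, so this check could hardly move a ratio. The number of members called changed by more than 1.5 times in 3 of the 7 comparisons. For day 3 against day 2 it was 1 in the report, 3 with the replicate block, 4 when only those days were fitted, and 1 to 2 when a library was left out. For *Nprl2* KO against wild-type it was 0 in the report, 1 with no filter on low counts (*Lama1*, adjusted p = 2.59e-06), and 0 to 1 when a library was left out. For *Tsc2* KO against *Nprl2* KO it was 2 in the report, 4 with no filter, 4 with the replicate block, and 2 to 4 when a library was left out. The cause of these differences was not tested. With the replicate block, *Lama1* (adjusted p = 0.00247) and *Col4a2* were called between days 2 and 3, *Col4a2* between days 0 and 3 (adjusted p = 0.00531), and *Lama1* and *Dab2* between the knockouts. It cost no call. The libraries share only a number, and the GFP+ genotypes have only 2 pairs each (correlations 0.085 to 0.164). Requiring 10 counts in every library removed the lowest members and left 53 of 70 member values, all with the same call. Upper-quartile scaling changed none of 70 calls, DESeq2 changed 2 and limma 1. Counts of 3 to 47 limit what can be seen for *Gata6* and *Sox17*.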

Other observations

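Of the 15 enzymes and chaperones that modify and fold collagen chains, 6 were higher and 4 lower on day 3 than on day 0, near the shares of all tested genes (35.0% and 35.9%). *Pxdn*, the peroxidase that forms sulfilimine crosslinks in collagen IV, rose from 2.48 to 3.26 TPM on day 0 to 60.1 to 66.1 TPM on day 3, a log2 difference of 4.42 (SE 0.11, adjusted p = 6.13e-16). *Serpinh1*, the collagen chaperone of the endoplasmic reticulum, rose by 1.43 (SE 0.18, adjusted p = 2.61e-05), and *P3h2*, a prolyl 3-hydroxylase, by 2.53 (SE 0.33, adjusted p = 1.51e-06). *Crtap* and *P3h1*, which work in a shared prolyl 3-hydroxylation complex, fell by 2.14 (adjusted p = 5.47e-14) and 1.54 (adjusted p = 3.52e-11). In *Tsc2* KO, 2 of the 15 genes were higher than in wild-type and 1, *Pxdn*, was lower (-0.997, SE 0.17, adjusted p = 0.00109). Among all tested genes 14.9% were higher and 14.2% lower in that comparison. In *Nprl2* KO none of the 15 was called by edgeR, DESeq2 or limma, with 4 at an unadjusted p under 0.05 in edgeR.

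Of 9 tested receptors for the basement membrane, 4 were higher and 3 lower on day 3 than on day 0, also near those shares. *Ddr1*, a collagen receptor kinase, rose by 2.96 (SE 0.16, adjusted p = 7.03e-09), *Itga3*, a laminin-binding integrin chain, by 2.85 (SE 0.08, adjusted p = 2.32e-16) and *Itgb1*, its beta partner, by 1.37 (SE 0.07, adjusted p = 3.58e-12). *Bcam*, a receptor for laminin alpha-5, fell by 0.85 (adjusted p = 0.00118). In GFP+ cells *Ddr1* differed from wild-type by -0.62 in *Tsc2* KO (adjusted p = 0.00144) and by 0.40 in *Nprl2* KO (adjusted p = 0.0497), and in the direct comparison it was lower in *Tsc2* KO than in *Nprl2* KO (-1.02, adjusted p = 2.65e-05). *Itga1*, a collagen-binding integrin chain, fell by 2.29 in *Tsc2* KO relative to wild-type (log2 scale, SE 0.31, adjusted p = 1.8e-04).

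Among the ligands of the Pdgf receptors, *Pdgfc* fell by 3.27 from day 0 to day 3 (SE 0.13, adjusted p = 2.64e-14) and *Pdgfb* rose by 2.17 (SE 0.43, adjusted p = 0.00118). *Tfap2c*, a factor of trophoblast and also of naive mESCs, fell by 4.77 (SE 0.12, adjusted p = 6.69e-17), and made up most of the day 0 sum of the 6 trophoblast markers, which summed to 39.1 to 43.3 TPM on day 0 and 5.69 to 8.66 TPM on day 3. Of the 3 tested, *Gata3* fell too (-1.62, adjusted p = 8.21e-04) and *Krt7* rose (2.23, SE 0.50, adjusted p = 0.00109). The 8 mesendoderm markers summed to 10.5 to 12.5 TPM on day 0 and 6.26 to 13.8 TPM on day 3. Of the 6 tested, 2 were higher and 2 lower (35.0% and 35.9% of all tested genes). *Eomes* (-0.87, adjusted p = 0.0204) and *Gsc* (-4.62, adjusted p = 4.19e-06) fell, and T (1.36, adjusted p = 0.0396) and *Mixl1* (adjusted p = 0.0142) rose. *Gsc*, T and *Mixl1* were named after their values were seen.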
